A study of Mus musculus with 16 samples.

Results

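S100a5 and 7 other genes of calcium-binding or calmodulin-binding proteins of olfactory neurons (Calb1, Calb2, Pcp4, Pcp4l1, Ncald, Vsnl1 and Hpca) were followed in sorted cells of the mouse olfactory mucosa. The 8 genes were taken by symbol from the array's annotation. Of these, 7 were measured by 1 probe set each, out of 19505 genes measured in all, and Ncald, the gene of neurocalcin delta, was not analysed here. Expression had been measured on Affymetrix Clariom S arrays. Every value below is a deposited expression value, read as log2, or a difference between such values.

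The mice were of the C57BL/6 strain and of both sexes, aged 7 to 12 weeks, and carried an S100a5-tauGFP reporter, which places a green fluorescent protein under the control of S100a5. All 24 mice were kept singly in chambers of clean air for 40 hours, and from hour 26 they received 10 second pulses every 20 minutes. Pulses carried bourgeonal, an aldehyde odorant, for the odor mice and filtered air for the vehicle mice. The mucosa was then dissociated and sorted by fluorescence into a GFP+ and a GFP- gate, with cells of 3 mice pooled in each library. There were 4 groups of 4 libraries: odor titled GFP-, odor titled GFP+, vehicle titled GFP- and vehicle titled GFP+, from 4 odor and 4 vehicle pools. Both gates of any pool were treated as coming from the same 3 mice, which follows from the count of mice and is not written in the labels. All groups share the strain, the reporter and the chamber, and a library is a pool of mice and of whatever cells the gate let through.

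In each of the 16 samples the gate named in the title is the opposite of the one in the cell type field. The grouping here follows the titles, and the gate difference is the library titled GFP- minus the library titled GFP+ of the same pool. The libraries titled GFP- are those the cell type field calls GFP+.

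Calcium that enters the cilia of an olfactory sensory neuron during odor transduction binds small proteins with EF-hand loops. Calmodulin is the general sensor of the cell and takes part in adaptation to odor. S100 proteins, calbindins and neuronal calcium sensors bind calcium themselves, whereas Pcp4 and its relatives carry an IQ motif, a sequence that binds calmodulin. S100a5 is known in mouse olfactory sensory neurons for messenger levels that follow the neuron's activity, the property the reporter uses.

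The promoter windows of S100a5 and Pcp4l1 are shown because the levels of these genes moved together across the libraries, as described below. Each runs from 250 bases before to 50 bases after the annotated start and is written 5′ to 3′ on the gene's strand, from RefSeq on GRCm38.p6. Capitals mark TATAAA (the TATA box) and CCAAT or its reverse complement ATTGG (the CCAAT box). The S100a5 window lies on the plus strand at chr3:90608272-90608571, and the Pcp4l1 window on the minus strand at chr1:171196219-171196518.
S100a5: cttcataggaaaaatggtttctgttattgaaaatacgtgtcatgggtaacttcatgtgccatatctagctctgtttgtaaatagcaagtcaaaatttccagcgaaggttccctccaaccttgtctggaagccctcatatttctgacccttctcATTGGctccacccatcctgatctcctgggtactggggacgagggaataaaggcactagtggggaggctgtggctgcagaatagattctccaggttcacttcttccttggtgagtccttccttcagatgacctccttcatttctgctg
Pcp4l1: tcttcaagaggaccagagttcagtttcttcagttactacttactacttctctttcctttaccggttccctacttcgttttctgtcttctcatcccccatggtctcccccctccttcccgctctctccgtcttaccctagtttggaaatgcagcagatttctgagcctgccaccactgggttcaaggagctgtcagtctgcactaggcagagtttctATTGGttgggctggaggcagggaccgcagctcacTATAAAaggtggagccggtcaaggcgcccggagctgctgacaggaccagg
The Pcp4l1 window held TATAAA at base 251 of the window and ATTGG at base 217, whereas the S100a5 window held no TATAAA and an ATTGG at base 154. That TATAAA began at the annotated start itself and not before it. Neither window held a cAMP response element (TGACGTCA), its core (TGACG) or an AP-1 site (TGANTCA), each searched on both strands. A full cAMP response element always contains the core, and the core contains no other motif searched. Of 32851 promoter windows of the same length, 1.79% held the full cAMP response element, 20.8% the core, 7.81% the AP-1 site, 13.6% the TATA box and 37.4% the CCAAT box. A match is a run of letters and not a measured site, and a missing match says only that those letters are not in this window. Windows were found for 5 of the 8 genes.

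The array gave a clear signal for 4 of the 7 measured genes. A guide to background was the 95th percentile of 321 vomeronasal receptor genes, taken as its highest value among the libraries of a group, which was 4.90 in odor titled GFP-, 4.57 in odor titled GFP+, 4.97 in vehicle titled GFP- and 4.64 in vehicle titled GFP+. S100a5, Pcp4l1, Calb2 and Vsnl1 lay far above it in all 4 groups, while the group means of Calb1, Pcp4 and Hpca lay below it in all 4. The guide and the vomeronasal medians were higher in libraries titled GFP-. Medians ran from 3.42 to 3.54 in odor titled GFP- and from 3.18 to 3.35 in odor titled GFP+. A gene under the guide in all 4 groups gives 0.331 over 8 pools once its means are raised to the guide. Calls of such genes as higher are counted below but not read as expression differences. Arrays have no read depth, so the number of arrays limits the precision, and ratios near background are compressed. Levels of different genes come from different probes and are not compared with each other.

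**Figure D1:**
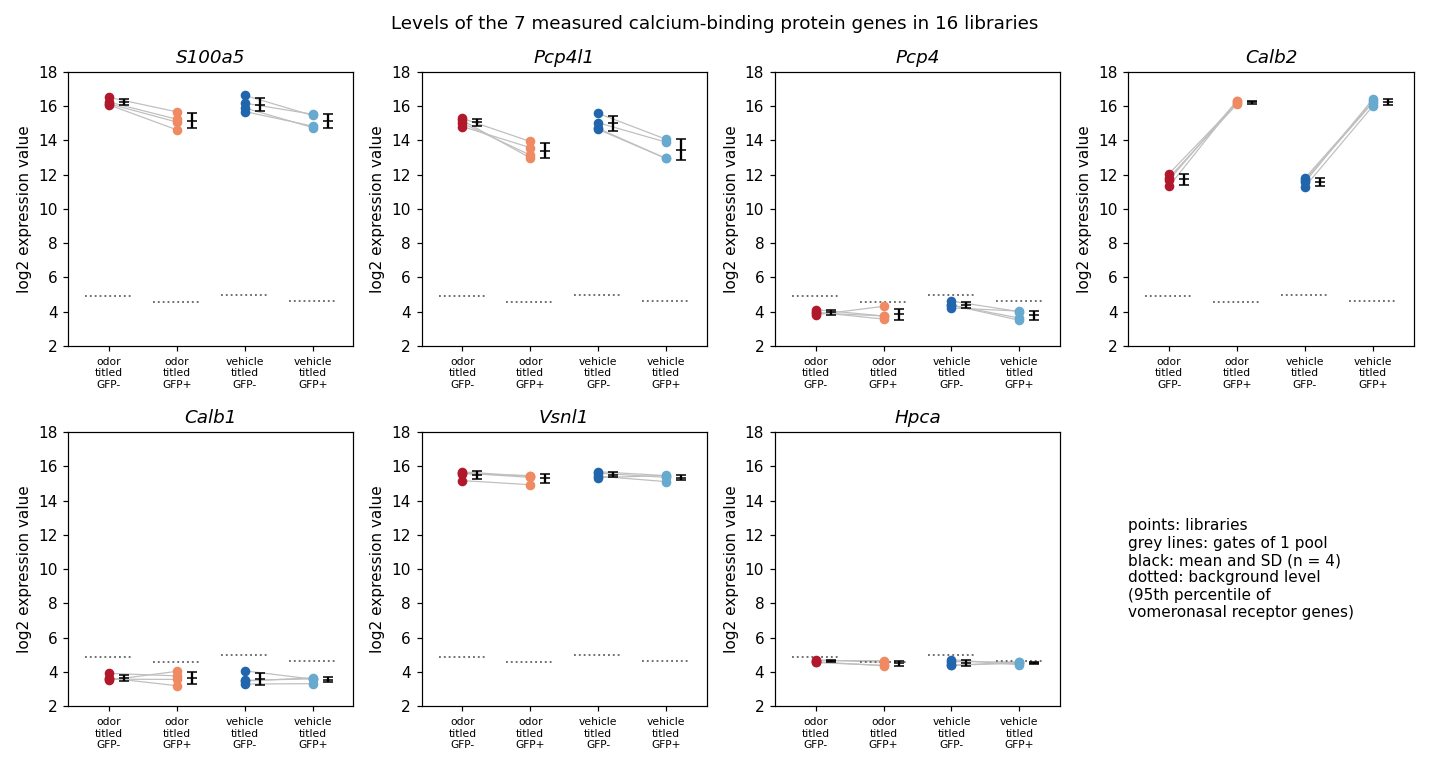
Level of each of the 7 measured genes (vertical axis, log2 expression value) in the 16 libraries by group; points are libraries, grey lines join the gates of 1 pool, black marks are the mean and SD of 4 libraries, and dotted lines are the background guide. S100a5 and Pcp4l1 lie higher in libraries titled GFP-, Calb2 lies higher in libraries titled GFP+, and Calb1, Pcp4 and Hpca lie under the guide in each group mean.

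S100a5 had values of 16.14, 16.24, 16.51 and 16.07 in odor titled GFP- replicates 1 to 4, against 15.07, 15.23, 15.67 and 14.62 in odor titled GFP+. In vehicle titled GFP- replicates 1 to 4 it had 15.69, 16.17, 16.63 and 15.89, against 14.84, 15.53, 15.46 and 14.75 in vehicle titled GFP+. All 8 libraries titled GFP- lay above all 8 titled GFP+, with 15.69 as the lowest of the first and 15.67 as the highest of the second. The group means were 16.24 ± 0.19 in odor titled GFP- and 15.15 ± 0.43 in odor titled GFP+, then 16.10 ± 0.41 in vehicle titled GFP- and 15.14 ± 0.41 in vehicle titled GFP+ (SD, n = 4 each).

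Within a pool, S100a5 was higher in the library titled GFP- by 1.07, 1.00, 0.85 and 1.46 log2 units in odor pools 1 to 4 and by 0.85, 0.65, 1.17 and 1.14 in vehicle pools 1 to 4. The mean over 8 pools was 1.02 ± 0.25 (SD), a 2.03-fold difference (limma with the pool as a block, adjusted p = 2.16e-05). The sort used the reporter of this gene, so its gate difference is a check of the labels and not a finding. It goes with the cell type field and against the titles in 8 of 8 pools, so each direction below is given for the library as titled.

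Pcp4l1, a small relative of Pcp4 with an IQ motif, differed between the gates in the same direction as S100a5. It had 15.01, 14.81, 15.29 and 15.16 in odor titled GFP- replicates 1 to 4, against 13.15, 13.58, 13.94 and 12.98 in odor titled GFP+. The vehicle libraries titled GFP- had 14.70, 15.03, 15.58 and 14.65, against 12.95, 13.90, 14.07 and 12.94 in vehicle titled GFP+. The gates did not overlap in either treatment, the lowest library titled GFP- being at 14.65 and the highest titled GFP+ at 14.07.

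The Pcp4l1 gate difference was 1.86, 1.23, 1.35 and 2.18 in odor pools 1 to 4 and 1.75, 1.13, 1.51 and 1.70 in vehicle pools 1 to 4. Every pool was higher in the library titled GFP-, with a mean of 1.59 ± 0.35 (SD, n = 8 pools), a 3.01-fold difference (limma adjusted p = 3.61e-06). Of 19505 genes, 5.79% had a gate difference of at least this size in either direction. P-values of gate differences rest on how much that difference varied between these pools, moderated by limma over all genes, and not on single mice.

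Calb2, the gene of calretinin, an EF-hand calcium buffer of some olfactory sensory neurons and of many interneurons, differed the other way and by more than any other of the 7 genes. Its values were 12.06, 11.69, 11.33 and 11.83 in odor titled GFP- replicates 1 to 4, against 16.18, 16.31, 16.30 and 16.11 in odor titled GFP+. Vehicle libraries titled GFP- had 11.79, 11.56, 11.29 and 11.68, against 16.27, 16.41, 16 and 16.20 in vehicle titled GFP+. The lowest library titled GFP+, at 16, lay far above the highest titled GFP-, at 12.06.

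Calb2 was lower in the library titled GFP- of 8 of 8 pools, with gate differences of -4.11, -4.61, -4.98 and -4.29 in odor pools 1 to 4 and -4.48, -4.85, -4.71 and -4.52 in vehicle pools 1 to 4. The mean was -4.57 ± 0.28 (SD, n = 8), or 23.7-fold lower in libraries titled GFP- (limma adjusted p = 8.25e-10), a size that 0.861% of all genes reached in either direction. Libraries titled GFP- still held Calb2 well above background, at group means of 11.73 ± 0.31 with odor and 11.58 ± 0.21 with vehicle (SD, n = 4 each). In sorted pools such as these, fewer cells of a type and less RNA per cell cannot be told apart.

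Markers of other cells moved with the Calb2 difference. Of 8 measured genes of immature olfactory sensory neurons, 6 were lower in libraries titled GFP- and 0 higher, among them the G protein subunit Gng8 (-4.73) and Dpysl3 (-4.15). The median of the list was smaller in size, at -1.38. Dcx (0.05, limma adjusted p = 0.703) and Crmp1 (-0.20, limma adjusted p = 0.083) did not pass. The mean of that list ran from 10.28 to 10.45 in odor titled GFP- and from 12.00 to 12.30 in odor titled GFP+, and from 10.19 to 10.52 in vehicle titled GFP- and from 12.05 to 12.47 in vehicle titled GFP+. All 10 immune genes were lower as well, with list means of 4.20 to 5.07 in odor titled GFP- and 11.25 to 11.89 in odor titled GFP+, and of 4.14 to 4.98 in vehicle titled GFP- and 10.76 to 11.86 in vehicle titled GFP+.

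All 4 progenitor genes also passed as lower in libraries titled GFP-, among them Mki67, at least 27.1-fold lower, and Neurog1, whose level lay under background in all 4 groups. All 8 microvillar genes were lower, among them Trpm5, by at least 16.8-fold, and Pou2f3, by at least 6.46-fold, as were 5 of 6 sustentacular genes, among them Cyp2g1 (-1.83) and Cyp2a5 (-2.21). For olfactory bulb neurons, which also use calretinin, 1 of 8 marker genes was higher, 1 lower, and 6 lay below background in each group, Gad1 among them (0.02). The part of any of these cells in the Calb2 difference was not tested. Among 10 genes of mature neurons, 2 passed as higher and 0 as lower, and Omp, the standard marker of mature olfactory sensory neurons, differed by 0.04 (limma adjusted p = 0.717). That count depends on the scaling: with each library centred on its median 10 of the 10 were higher, and after quantile normalization 3 were.

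Vsnl1, the gene of visinin-like protein 1, a neuronal calcium sensor that moves to membranes when it binds calcium, lay far above background in all groups and differed little between them. It had 15.58, 15.68, 15.61 and 15.17 in odor titled GFP- replicates 1 to 4, against 15.46, 15.42, 15.36 and 14.93 in odor titled GFP+. In vehicle titled GFP- it had 15.43, 15.69, 15.34 and 15.61, against 15.11, 15.46, 15.47 and 15.36 in vehicle titled GFP+. The gates overlapped in both treatments.

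The Vsnl1 gate difference was above 0 in 7 of 8 pools, at 0.12, 0.26, 0.25 and 0.24 in odor pools 1 to 4 and 0.31, 0.23, -0.13 and 0.24 in vehicle pools 1 to 4. Its mean of 0.19 (95% interval 0.0055 to 0.375) did not pass the test (limma adjusted p = 0.116). Of all genes, 54.1% had a gate difference of at least this size.

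Pcp4, the gene of PEP-19, a calmodulin-binding protein of Purkinje cells and other neurons, lay under the background guide in every group mean. It had 3.98, 4.12, 3.93 and 3.82 in odor titled GFP-, against 3.57, 3.75, 3.76 and 4.32 in odor titled GFP+, and 4.39, 4.39, 4.62 and 4.23 in vehicle titled GFP-, against 3.50, 3.63, 4.01 and 4.04 in vehicle titled GFP+. The vehicle gates did not overlap, and the odor gates did. The gate difference over 8 pools was 0.36 (limma adjusted p = 0.0516), with 0.11 in odor pools (limma adjusted p = 0.703) and 0.61 in vehicle pools (limma adjusted p = 0.0375). The vehicle value lost its call without vehicle replicate 1 (limma adjusted p = 0.139), 2 (0.130) or 3 (0.100), and the odor minus vehicle difference, at -0.50, did not pass (unadjusted p = 0.071, limma adjusted p = 0.872).

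Calb1, the gene of calbindin D28K, a calcium buffer of many central neurons, ranged from 3.20 to 4.07 over the 16 libraries. Its gate difference of 0.04 (limma adjusted p = 0.851) was above 0 in 4 pools and below 0 in 4. Hpca, the gene of hippocalcin, a calcium sensor best known from the hippocampus, ranged from 4.37 to 4.72 and differed by 0.07 (limma adjusted p = 0.585). Neither gene gave a level above the background guide in any group mean. Of 13 alternatives over 8 pools, both passed as higher only when each library was centred on its median, Calb1 at 0.39 (limma adjusted p = 0.0103) and Hpca at 0.42 (0.00152), a setting that raised the median of all genes to 0.458.

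Of the 7 genes, 2 were higher, 1 lower and 4 did not pass over 8 pools, S100a5 being 1 of the higher ones. Over all genes, 27.6% passed, 14.4% as higher and 13.2% as lower in libraries titled GFP-. The median gate difference was 0.19 among the 7 genes and 0.105 among all genes. Within the odor pools 3 of the 7 passed, 2 upwards and 1 downwards (18.1% of all genes passed), and within the vehicle pools 4 passed, 3 upwards and 1 downwards (16.2% of all genes passed). These counts depend on the scaling: centring each library on its own median moved the median gate difference of all genes to 0.458 and gave 16128 genes past the threshold, 88.9% of them higher, against 52.2% as deposited. Quantile normalization gave 62.9% higher. S100a5, Pcp4l1 and Calb2 kept their directions and their calls under each of 14 alternatives, with means over pools of 0.96 to 1.38 for S100a5, 1.502 to 1.943 for Pcp4l1 and -4.63 to -4.21 for Calb2. Among these, averaging probe sets could not change their values, since each gene has 1 probe set.

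**Figure D2:**
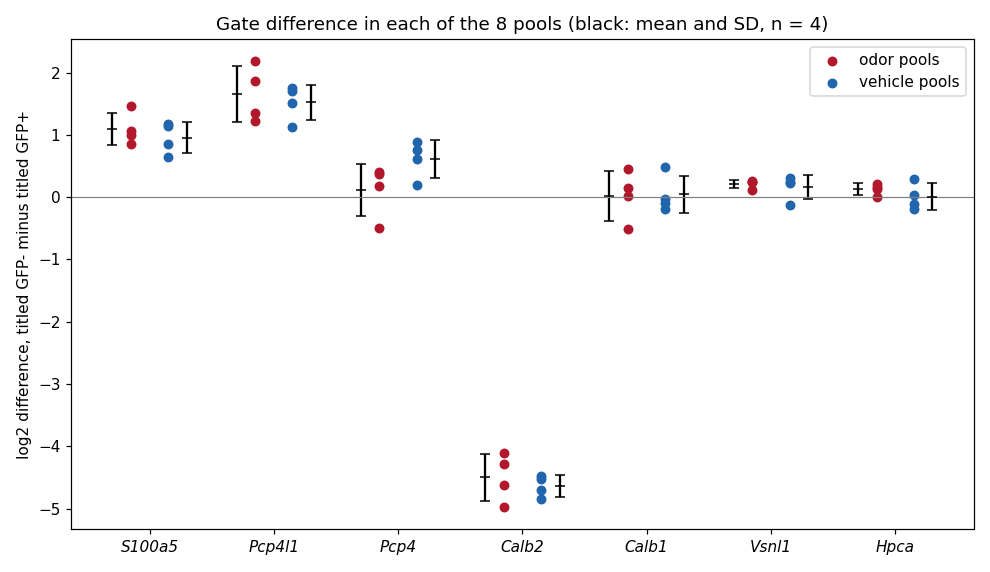
Gate difference (vertical axis, log2 of titled GFP- minus titled GFP+) of the 7 genes in the 4 odor and 4 vehicle pools; points are pools, black marks the mean and SD of 4 pools. All 8 points of S100a5 and Pcp4l1 lie above 0, all 8 of Calb2 lie between -4.98 and -4.11, and the points of the other genes lie on both sides of 0.

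The order of the group levels was the same for S100a5 and Pcp4l1 as far as the gate goes. Both groups titled GFP- came before both groups titled GFP+, and the odor and vehicle groups next to each other in that order had overlapping libraries. For Calb2 the order of the gates was turned, with the odor and vehicle groups of a gate again overlapping. For Vsnl1 no neighbouring groups were separated.

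Whether bourgeonal changed these genes was asked within each gate, odor minus vehicle. None of the 7 passed in libraries titled GFP- (0 of 7, against 0.0% of all genes) or in libraries titled GFP+ (0 of 7, against 0.0103% of all genes, 2 genes, or 1 gene with the replicate number as a block). At an unadjusted p under 0.05, limma gave 1 of the 7 genes in libraries titled GFP- and 0 in those titled GFP+, and 869 and 827 of all genes, where 975.25 would be expected by chance.

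S100a5 itself differed by 0.15 in libraries titled GFP- (95% interval -0.32 to 0.61, limma adjusted p = 0.996) and by 0.00 in libraries titled GFP+ (-0.54 to 0.55, limma adjusted p = 0.999). These intervals take in a rise of up to 0.61 log2 units, and so do not show that the levels were alike. They come from the fit without the replicate number, and so include any spread that goes with that number. Intervals with the number as a block are not given here. Pcp4l1 differed by 0.08 (-0.40 to 0.55) in libraries titled GFP- and by -0.05 (-0.71 to 0.60) in those titled GFP+, with limma adjusted p = 0.997 and 0.999.

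Calb2 differed by 0.15 (-0.27 to 0.56) in libraries titled GFP- and by 0.00 (-0.31 to 0.32) in those titled GFP+. Vsnl1 differed by -0.01 (-0.37 to 0.35) in libraries titled GFP- and by -0.06 (-0.42 to 0.31) in those titled GFP+. The gene with the unadjusted p under 0.05 was Pcp4, at -0.44 (-0.77 to -0.12, unadjusted p = 0.0121, limma adjusted p = 0.996) in libraries titled GFP-. Its 4 odor libraries there, up to 4.12, lay below the 4 vehicle libraries, from 4.23 up, and all 8 lay under the background guide.

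**Figure D3:**
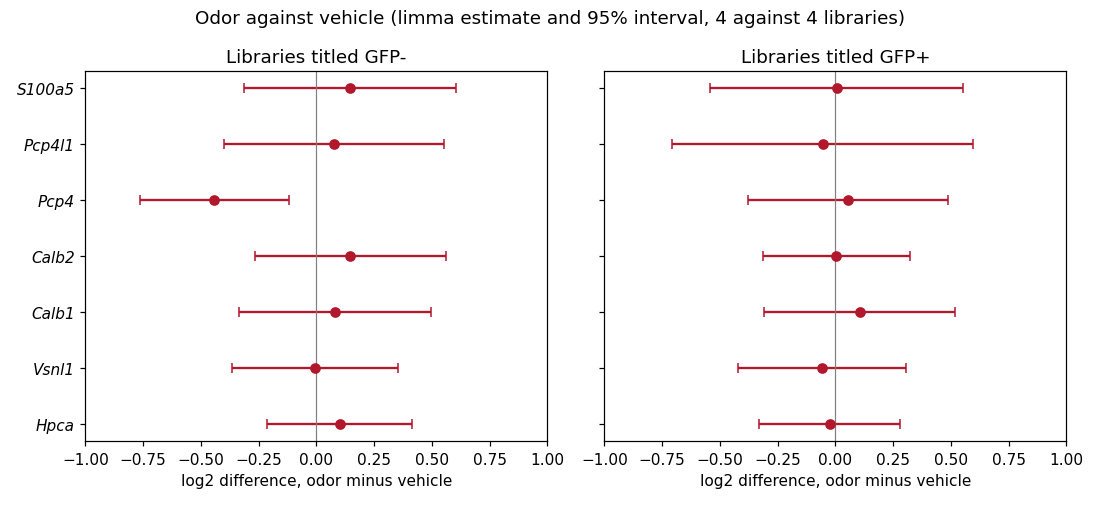
Odor minus vehicle difference (horizontal axis, log2) of the 7 genes in libraries titled GFP- on the left and titled GFP+ on the right; points are limma estimates from 4 against 4 libraries and bars are 95% intervals. Each bar crosses 0 other than that of Pcp4 in libraries titled GFP-, which did not pass after adjustment.

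The gate difference was also compared between treatments, as odor pools minus vehicle pools. S100a5 gave 0.14 (95% interval -0.31 to 0.59), Pcp4l1 0.13 (-0.42 to 0.69), Calb2 0.14 (-0.34 to 0.62) and Vsnl1 0.05 (-0.32 to 0.42), and none of the 7 genes passed (0.0% of all genes, smallest limma adjusted p over all genes 0.172). At an unadjusted p under 0.05 limma gave 0 of the 7 genes and 1109 of all genes.

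S100a5 and Pcp4l1 varied together from library to library. Over the 16 libraries the Pearson correlation of their log2 levels was 0.973, the highest that S100a5 had with any of 11285 genes compared, and Pcp4l1's highest was likewise with S100a5. The points share the gate and the pool, so this is a description. The next genes for S100a5 were Kcnmb3 (0.950), a subunit of calcium-activated potassium channels, and Icmt (0.940), an enzyme that methylates prenylated proteins. For Pcp4l1 they were Scn4b (0.959), a sodium channel subunit, and Tmem64 (0.955).

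**Figure D4:**
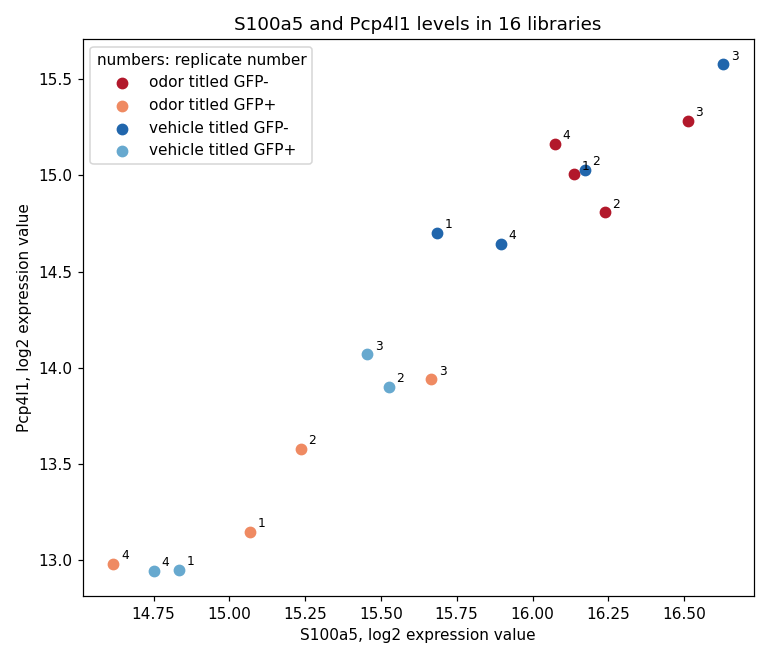
Level of Pcp4l1 (vertical axis, log2 expression value) against the level of S100a5 (horizontal axis, log2 expression value) in the 16 libraries, coloured by group and marked with the replicate number. Libraries titled GFP- lie at the upper right and those titled GFP+ at the lower left, and replicate 3 of odor titled GFP-, odor titled GFP+ and vehicle titled GFP- is the highest of its group in both genes.

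With the 4 group means taken off, S100a5 and Pcp4l1 still correlated at 0.918, which put Pcp4l1 11th among the genes compared. The first 3 were Kpna2 (0.939), an importin, Zfp882 (0.930), a zinc finger gene, and Neu2 (0.930), a sialidase. The deviations went with the replicate number in the titles: S100a5 was above its group mean in 0 of 4 libraries numbered 1, in 3 of 4 numbered 2, in 4 of 4 numbered 3 and in 0 of 4 numbered 4, with mean deviations of -0.22, 0.14, 0.41 and -0.32. Pcp4l1 was above its group mean in 0, 3, 4 and 1 of 4 libraries for the same numbers, with mean deviations of -0.28, 0.10, 0.48 and -0.30. What an odor and a vehicle library with 1 number have in common is not written in the labels, and the part of the number in the correlation was not tested beyond these values.

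Calb2 correlated with S100a5 at -0.852 in level and at -0.335 with the group means taken off. Its most alike genes were Vim (0.997), the intermediate filament vimentin, Rgs5 (0.996), a regulator of G protein signalling, and Mmp8 (0.995), a neutrophil collagenase, in points that fall into the 2 gates. Vsnl1 correlated with S100a5 at 0.594, and its most alike genes were Gcdh (0.883), Synj1 (0.880), a phosphatase of synaptic vesicle recycling, and Rsph4a (0.861). The 3 genes under background were most like Zfat (Calb1, 0.793), Fam71e2 (Pcp4, 0.835) and Zmym4 (Hpca, 0.826).

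S100a5 lies among 14 S100 genes of chromosome 3, between S100a4 and S100a6 in the order of their positions. Both neighbours gave gate differences in the other direction as deposited, and neither kept its call after quantile normalization. S100a4 had 5.77 in odor titled GFP- and 6.47 in odor titled GFP+, and 5.62 in vehicle titled GFP- and 6.34 in vehicle titled GFP+, a difference of -0.71 over 8 pools (limma adjusted p = 0.00223) that did not pass after quantile normalization (limma adjusted p = 0.064). S100a6 differed by -0.42 (limma adjusted p = 0.0106), with titled GFP- means under background, and passed neither after centring (-0.06) nor after quantile normalization (-0.21). With its means raised to background S100a6 gave 0.03.

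Further along the order before S100a4, S100a3 was higher by 0.92 ± 0.14 (SE, limma adjusted p = 0.000588) and in 8 of 8 pools, with group means of 5.72 in odor titled GFP- and 4.87 in odor titled GFP+, and of 5.73 in vehicle titled GFP- and 4.74 in vehicle titled GFP+. The titled GFP+ means of S100a3 lay only a little above the background guide. S100a13 was higher by 0.41 and S100a2 by 0.49, the last with all group means under background. On the other side of S100a6, S100a8 and S100a9, the calprotectin subunits of neutrophils, were lower by at least 586-fold and at least 341-fold in libraries titled GFP-, these being bounds taken against the background guide, because 1 or both titled GFP- means lay under it. S100a11 was 133-fold lower and S100a10, a partner of annexin A2, at least 2.22-fold lower, while S100a1 (-0.32), S100a7a (0.06), S100a14 (0.02) and S100a16 (0.33) did not pass. S100a8 and S100a9 are also 2 of the immune markers above.

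Besides the 7 genes, 74 measured genes of 10 calcium-protein families were examined, and over 8 pools 16 were higher and 17 lower, or 33 of 74, with a median of 0.096, beside 14.4% higher, 13.2% lower and 27.6% called among all genes. The odor pools alone gave 7 higher and 16 lower, or 23 of 74 beside 18.1% of all genes, and the vehicle pools 7 and 13, or 20 of 74 beside 16.2%. None passed in any odor against vehicle comparison, with 2 in libraries titled GFP-, 3 in libraries titled GFP+ and 3 in the difference of gate differences at an unadjusted limma p under 0.05. The counts that follow are of whole families, the 7 genes included.

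Among 17 S100 genes, 4 were higher, 6 lower and 7 did not pass, and centring gave 9 higher and 5 lower. Of 5 genes of the calbindin group, Pvalb (parvalbumin) was higher by 0.51 with all group means under background, Calb2 was lower, and Scgn (secretagogin) gave -0.27 without passing (limma adjusted p = 0.059). Of 12 neuronal calcium sensors, relatives of Vsnl1 and Hpca, 0 were higher, 2 lower and 10 did not pass, whereas centring gave 10 higher and 1 lower and quantile normalization 2 higher and 2 lower. The 2 were the potassium channel partners Kcnip3, at least 1.66-fold lower, and Kcnip2 (-0.57). Kcnip2 lay under background in both groups titled GFP- and in vehicle titled GFP+, and gave 0.256 with its means raised to background. Its call was lost after centring (-0.22).

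The 4 calmodulin genes measured did not pass, with Calm2 at -0.06 and Calm3 at -0.10, signs that turned to 0.30 and 0.25, both called, when each library was centred on its median. Of the 4 small IQ-motif proteins, Pcp4l1 was higher, whereas Gap43, a growth-cone protein of immature neurons, was lower by 2.62 ± 0.10 (SE) and Nrgn (neurogranin) by 0.94 ± 0.09 on the log2 scale. Gap43 is also in the immature neuron list. Of 6 genes of the CaBP family, relatives of calmodulin, Cabp4 (0.57), Cabp1 (0.41) and Caln1 (0.38, under background) were higher. None was lower, and centring gave 6 higher. Only 2 of the 6, Cabp4 and Cabp1, had a group mean above background. Cabp1 lay little above it, at 5.38 in odor titled GFP- and 4.90 in odor titled GFP+, and at 5.29 and 4.95 with vehicle.

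Of 12 calmodulin-dependent kinase genes, 3 were higher, 3 lower and 6 did not pass, and centring gave 6 higher and 1 lower. Camk4 was higher by 0.61, the kinase inhibitor Camk2n2 by 0.46 and Camk2a by 0.37. Camk4 lay under background in both groups titled GFP+ and in vehicle titled GFP-, and gave 0.374 with its means raised to background. Camk2b differed by -1.63, Camk2n1 by -0.50 and Camk1d by -0.43, the last 2 losing their calls after centring and after quantile normalization. Of 7 genes of calcineurin, the calmodulin-dependent phosphatase, and its regulators, Rcan2 was at least 5.03-fold lower, the catalytic subunit Ppp3ca fell by 0.86 and the regulatory subunit Ppp3r1 fell by 0.75 on the log2 scale, both in 8 of 8 pools. Ppp3cc (0.28) and Ppp3r2 (0.44, under background) were higher, and lost their calls after quantile normalization.

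Calcium extrusion had 4 of 7 genes higher and 0 lower, beside 14.4% of all genes higher. Centring gave 7 of 7 higher, a setting under which 88.9% of all calls were higher. Only 3 of the 7 had a group mean above background. Atp2b2, Atp2b3, Slc8a2 and Slc8a3 lay under it in all 4 groups, so their values above 0 are not read as expression differences. The sodium-calcium exchanger Slc8a1 was higher by 1.05 ± 0.09 (SE, limma adjusted p = 4.57e-06), a 2.07-fold difference seen in 8 of 8 pools. Slc24a4, the exchanger that clears calcium from olfactory cilia after a response, was higher by 0.51 in 8 of 8 pools, the plasma membrane pump Atp2b1 by 0.50, and Atp2b2 by 0.35 under background. Of 7 calcium-binding proteins of the endoplasmic reticulum lumen, 6 did not pass, 5 of them passing as higher after centring, and Rcn1 (reticulocalbin 1) was at least 1.35-fold lower. The part of immature neurons or immune cells in these family differences was not tested.

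**Figure D5:**
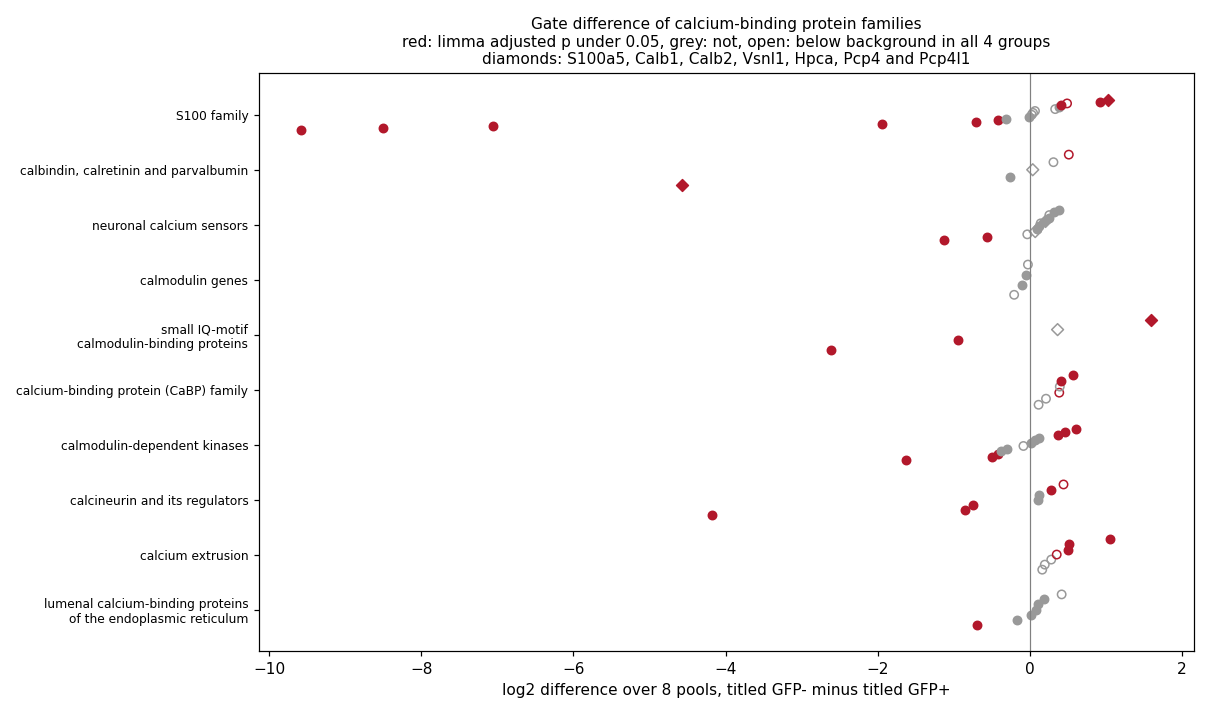
Gate difference over 8 pools (horizontal axis, log2 of titled GFP- minus titled GFP+) of the measured genes of 10 calcium-protein families, 1 row a family; each mark is a gene, red where the limma adjusted p was under 0.05, open where all 4 group means lay under background, and diamonds are the 7 genes described. S100 genes spread from -9.57 to 1.02, and neuronal calcium sensors lie near 0 other than Kcnip3 and Kcnip2. Calcium extrusion genes all lie above 0, but only 3 of the 7 had a group mean above background.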

How the data were processed

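The authors deposited 1 log2 expression value per probe set and library, with Affymetrix Expression Console as the software, per the submitters' processing notes. Its version, how probes were summarised and which build was used were not stated in the labels. Spike-ins added at hybridisation, at means of 8.60 (bioB), 10.44 (bioC), 11.64 (bioD) and 13.31 (cre), gave the base of the logarithm. Library medians over all genes lay between 5.94 and 6.36, and the highest values between 19.38 and 19.59. RNA input was 50 to 100 ng, per the labels' protocols.

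Of 28846 probe sets, 94 spike-in and 6546 other control probe sets were left out. In the platform annotation 19572 of the others had 1 gene, 0 had several and 2634 had none, and keeping the probe set with the highest mean gave 19505 genes. Values were used as deposited. limma 3.58.1 in R 4.3.3 (lmFit, eBayes) was fitted to the 16 libraries, pools entering as a block, for gate differences, and to 8 libraries without a block for odor against vehicle. Tests were two-sided, adjusted by Benjamini-Hochberg over 19505 genes, with a threshold of 0.05. The fits were tested on simulated data.

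Pools were kept as a block because both gates of a pool were taken to come from the same mice, which the labels do not state. After removal of the group means, the gates of a pool correlated at 0.135 to 0.287 with odor and at 0.098 to 0.201 with vehicle. Libraries of 1 number but different treatment correlated at 0.157 to 0.210 among those titled GFP+ and at 0.088 to 0.161 among those titled GFP-. Libraries of different number and different treatment correlated at -0.182 to 0.110 among those titled GFP+ and at -0.135 to 0.078 among those titled GFP-. In both gates every correlation of 1 number lay above those of different numbers. The correlations titled GFP+ met the rule for pairing. Odor against vehicle was still fitted without the number in both gates, and the fit with it as a block was an alternative. Libraries of 1 group correlated at 0.9896 to 0.9944.

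The genes and lists were chosen with earlier results of these data known. The text names the 8 genes, up to 5 genes per family with the largest gate difference past the threshold, the S100 genes of chromosome 3, the 3 genes most alike in level to each gene (and in deviation to S100a5), and the first 2 measured genes of a marker list. Genes most alike were sought among genes above background in at least 1 group, without chemoreceptor, Gm and Rik genes. Calmodulin genes, Scgn and second or later genes of these lists that did not pass were named after their values were seen. Passing marker genes beyond the first 2 of a list were also named then. Alternatives were no pool block or a number block, centring, quantile normalization, leaving out dim genes, averaging probe sets, another prior, and leaving out each pool.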

Additional observations from a re-analysis of the deposited data

Results flagged for a closer look

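The Vsnl1 gate difference in odor pool 1, 0.115, stood apart from the other 3 odor pools, at 0.24 to 0.26. Its gap to the nearest pool was 0.852 of the whole range, above Dixon's 95% critical value for 4 samples. The 42 groups of 4 values of the 7 genes were examined this way, and chance marks about 1 in 20 groups.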

How the results depend on the processing

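Of 570 recomputed values for the 7 genes, 551 kept their direction and side of the threshold, 5 lost a call, 14 gained one and 0 called values reversed, and 42 values called in neither fit changed sign. The values kept include those from averaging probe sets, which could not move genes with 1 probe set each. With every library centred on its median, the threshold was passed by 16128 genes and all 7 genes described over 8 pools, 12174 genes and 6 of the 7 in odor pools, and 12023 genes in vehicle pools. With no replicate block, 4724 genes passed over 8 pools and S100a5, Pcp4l1 and Calb2 remained called. In libraries titled GFP-, 1 gene passed with a trended, robust prior. In libraries titled GFP+, the count of 2 genes became 1 with a replicate block, 1 after quantile normalization, 0 with dim genes left out and 0 to 2 with 1 replicate left out, and none of the 7 genes passed. The block changed no other call of odor against vehicle. Pcp4 passed over 8 pools in 5 of 13 alternatives, among them no replicate block (limma adjusted p = 0.037), and Vsnl1 under a trended, robust prior (0.0113) and centring. The Pcp4 call in vehicle pools was also lost with that prior (0.0573) and without odor replicate 3 (0.0540). For the other lost or gained calls the cause was not tested. Signal near background limits Calb1, Pcp4 and Hpca, and Ncald was not analysed here.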

Other observations

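Some marker genes were not described with the results above. Of 4 genes of guanylyl cyclase D neurons, a small class of olfactory sensory neurons, 1 was lower in libraries titled GFP-: the phosphodiesterase Pde2a, at -3.63 (limma adjusted p = 2.98e-07), while Gucy2d, which names the class, gave -0.30 (limma adjusted p = 0.0776) under background. Of 4 Bowman gland genes 2 were lower, Sox9 at -5.12 and Aqp5 by at least 1.11-fold, and of 4 glial genes 2 passed as lower, Apoe at -2.76 and Sox10, which lay under background in all groups. Of 4 stromal genes 1 was lower, Dcn at -0.99. Col1a1 (-0.14), Col3a1 (0.26) and Lum (0.19) did not pass, the last 2 lying under background. The 4 endothelial genes lay under background in all groups. Tie1 (0.53) passed as higher and Pecam1 (-0.38) as lower, while Kdr (0.26) and Cdh5 (-0.06) did not pass. Among olfactory bulb genes, Eomes was higher by 0.36 and Gad2 differed by -0.84, Gad2 lying under background.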
